A study of Mus musculus with 24 samples.

Results

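Cdx2 binding in proximal colon organoids was compared between medium with and medium without niche growth factors. The comparison rests on 6 of the 12 Cdx2 libraries among the 24 samples of the series, chosen by their labels as proximal, with 3 libraries per medium. WENR-plus medium holds Wnt3a, EGF, Noggin and R-spondin 1. The WENR-minus organoids spent 2 days in that medium after plating and were then kept for 3 days without the factors. All organoids came from the proximal colon of 3 female mice aged 8 weeks and had been grown for 4 months in WENR-plus medium. Every group carried heterozygous alleles of a Cre-inducible BrafV600E and of a tdTomato reporter, and the labels name no Cre. Libraries were made by ChIPmentation, a chromatin immunoprecipitation in which a transposase adds the sequencing adapters to bead-bound chromatin. The labels give biological replicate numbers, and these were used to pair a WENR-plus with a WENR-minus library. No source used here states that a number marks 1 mouse in both media, so p-values measure the spread between libraries. The 12 input libraries were not analysed here.

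Cdx2 is a homeobox transcription factor that specifies intestinal identity and stays expressed in the colon epithelium, where it binds promoters and enhancers of differentiation genes. Wnt and R-spondin signals maintain the stem cells at the crypt base, EGF drives their proliferation through the MEK-ERK cascade, and Noggin keeps BMP signals away from them. Without these factors, colon organoid cells leave the stem state and differentiate. AP-1, a dimer of Jun and Fos family proteins, is a transcription factor regulated downstream of ERK and JNK signals, and GATA factors act beside Cdx2 at many intestinal enhancers.

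A peak is a stretch of the genome where the immunoprecipitated reads exceeded the matched input, and its fold is the enrichment over local background at its summit. After peaks outside chromosomes 1 to 19 and X were left out, the WENR-plus lists held 32021, 42177 and 13587 peaks in replicates 1, 2 and 3. The WENR-minus lists held 27909, 15930 and 11401 peaks. The WENR-minus list was the shorter in each pair, by 0.62 ± 0.68 on the log2 scale (mean ± SD, n = 3 pairs), and the ranges of the 2 media overlapped. The two-sided exact paired permutation test gave p = 0.25, the smallest that 3 pairs allow. Without replicate 2, whose lists differed most in length, the log2 difference was −0.23. The lists hold no read depth, and no read totals from the study's supplement enter the values. The background level solved from the fold and p-value of the peaks, which was taken in place of depth, was 1.55 to 2.19 reads in WENR-plus and 1.70 to 2.72 reads in WENR-minus libraries. Because list length moves with every count below, each comparison was repeated in lists of equal length, in which each library kept its 11401 peaks with the highest −log10 p.

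Merging all peaks of the 6 lists that shared 1 bp or more gave 57358 regions. In this text, a lost region was called in 3 of 3 WENR-plus and in 0 of 3 WENR-minus lists, a gained region the reverse, and a shared region in all 6 lists. There were 455 lost regions (0.793% of all) and 73 gained regions (0.127%). A further 6001 regions were shared. In lists of equal length, which gave 23051 regions, the order turned: 91 were lost (0.395%) and 191 gained (0.829%). Only 11 of the 455 lost regions still had a peak in all 3 WENR-plus lists after the lists were cut to equal length, against 24 of the 73 gained regions in the WENR-minus lists. Of the 191 regions gained at equal length, 30 had a peak in all 3 whole WENR-plus lists and 98 in 2 of them, so that most were weak there and not absent. The counts also depended on single pairs, with 1964, 743 and 4969 lost regions and 155, 651 and 310 gained regions when replicate 1, 2 or 3 was left out. At equal length the same omissions gave 342, 407 and 718 lost and 405, 716 and 658 gained regions, so the order turned back without replicate 3. Since organoids were measured in bulk, fewer cells with Cdx2 at a site and less Cdx2 per cell cannot be told apart.

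**Figure D1:**
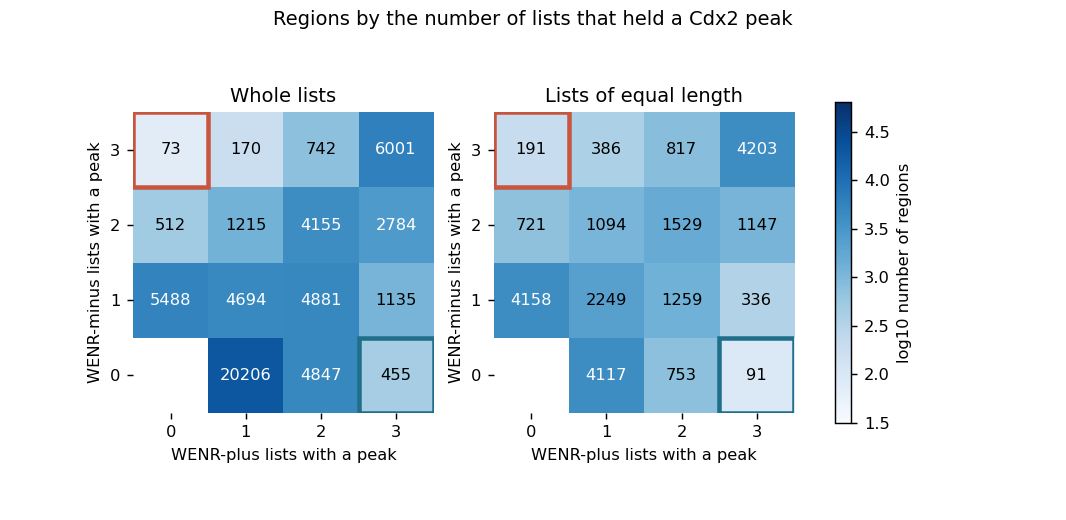
Number of merged regions by the number of WENR-plus lists (x axis, 0 to 3) and of WENR-minus lists (y axis, 0 to 3) with a peak, for whole lists and for lists of equal length. The corner called in WENR-plus lists only holds 455 regions and the corner called in WENR-minus lists only holds 73 with whole lists, while at equal length they hold 91 and 191.

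The DNA under chosen regions is shown first, as windows of 101 bp centred on the region summit, on the forward strand of GRCm38 (mm10). Capitals mark matches to 3 motifs that were searched on both strands. The CDX2 words were TTTATGA or TTTATGG as well as TTTATTA or TTTATTG in the forward direction, and a match on the other strand reads TCATAAA or CCATAAA for the first of these and TAATAAA or CAATAAA for the rest. The AP-1 word was TGANTCA. The GATA word was AGATAA. Within 50 bp of the summit, 59.7% of all regions held a CDX2 word, 6.22% the AP-1 word and 10.2% the GATA word. AP-1 and CDX2 matches can share bases, as they did in 436 of the 3568 regions with an AP-1 word. The first 3 windows are gained regions with an AP-1 word, the next is the shared region with the lowest p among those higher in WENR-minus, and the next 3 are lost regions with high fold. The last is a shared region of Car1, described with its locus.
Slc4a4 gained, chr5:88851526-88851626: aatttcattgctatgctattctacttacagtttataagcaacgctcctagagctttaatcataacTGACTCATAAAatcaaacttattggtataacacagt
Ptpn12 gained, chr5:21066603-21066703: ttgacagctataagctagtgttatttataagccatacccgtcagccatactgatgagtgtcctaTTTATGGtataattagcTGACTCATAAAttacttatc
Erlin1 gained, chr19:44061873-44061973: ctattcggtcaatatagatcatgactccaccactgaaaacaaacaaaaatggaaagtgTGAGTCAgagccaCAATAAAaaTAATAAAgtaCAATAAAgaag
Soat1 shared, chr1:156474620-156474720: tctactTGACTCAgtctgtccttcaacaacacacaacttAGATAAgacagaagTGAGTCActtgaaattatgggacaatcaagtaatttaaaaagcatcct
Jun lost, chr4:95134020-95134120: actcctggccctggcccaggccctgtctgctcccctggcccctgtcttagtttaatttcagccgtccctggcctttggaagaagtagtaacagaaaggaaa
Ttc7 lost, chr17:87352437-87352537: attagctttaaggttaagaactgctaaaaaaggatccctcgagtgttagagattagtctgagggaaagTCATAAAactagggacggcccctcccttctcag
Npvf lost, chr6:50767277-50767377: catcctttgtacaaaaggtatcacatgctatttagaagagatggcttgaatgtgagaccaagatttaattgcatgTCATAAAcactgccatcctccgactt
Car1 shared, chr3:14806988-14807088: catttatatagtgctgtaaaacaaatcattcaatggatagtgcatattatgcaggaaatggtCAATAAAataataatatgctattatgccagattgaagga
In the Slc4a4 and Ptpn12 windows the AP-1 word and a CDX2 word overlap in a single run of capitals. These were the only 2 of the 13 gained regions with an AP-1 word in which the matches shared bases. The Ptpn12 region had percentiles within the whole list of 52.7, 15.0 and 32.2 in WENR-minus. It kept a peak in 1 of 3 WENR-minus lists at equal length. In the Erlin1 window an AP-1 word stands beside 3 CDX2 words. The Jun window holds none of the 3 motifs, while the Ttc7 and Npvf windows each hold 1 CDX2 word.

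Gained regions held the AP-1 word more often than lost regions did. It was found in 13 of the 73 gained regions (17.8%, Wilson 95% interval 10.7% to 28.1%) and in 19 of the 455 lost regions (4.18%, 2.69% to 6.43%). Shared regions lay between them, with 659 of 6001. At equal length, 39 of 191 gained regions (20.4%, 15.3% to 26.7%) and 5 of 91 lost regions (5.49%, 2.37% to 12.2%) held the word. Regions just outside the definition held it in 34 of 170 cases when called in 1 WENR-plus and 3 WENR-minus lists and in 89 of 1135 when called in 3 WENR-plus and 1 WENR-minus lists. Leaving out replicate 1, 2 or 3 gave 20.6%, 16.1% and 12.9% for gained and 6.62%, 4.44% and 4.19% for lost regions. These intervals cover counting error over regions, which are not replicates of a medium. In whole lists, both classes were poorer in CDX2 words (49.3% of gained and 50.5% of lost regions) than shared regions (68.4%). At equal length the shares were 59.2% of gained, 67.0% of lost and 73.4% of shared regions. Lost regions then lay above the 63.5% of all regions. Of the 13 gained regions with an AP-1 word, 8 had no CDX2 word in the window.

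The lists as a whole showed the same order in each pair. AP-1 words were found at 6.07%, 5.54% and 8.57% of WENR-plus summits and at 8.19%, 7.14% and 9.60% of WENR-minus summits in replicates 1 to 3. The share was higher in WENR-minus in 3 of 3 pairs, by 1.58 ± 0.55 percentage points (mean ± SD), while the ranges of the 2 media overlapped. The exact paired permutation test gave p = 0.25, the smallest possible with 3 pairs, and p = 0.55 after Benjamini-Hochberg adjustment over 11 list measures. At equal length the shares were 7.59%, 6.80% and 8.76% in WENR-plus and 9.94%, 7.74% and 9.60% in WENR-minus lists. For the GATA word the shares were 9.73%, 10.3% and 10.2% against 10.3%, 11.1% and 10.5% in replicates 1 to 3. The GATA shares of the 2 media did not overlap, and the unpaired exact permutation test gave p = 0.1, the smallest that 3 lists against 3 allow. At equal length the GATA shares overlapped, at 10.2%, 11.1% and 10.4% against 10.6%, 11.5% and 10.5%, and the mean difference was 0.342 in place of 0.607 percentage points. CDX2 words had no common direction, at 60.6%, 55.7% and 52.4% of WENR-plus and 57.5%, 65.5% and 48.0% of WENR-minus summits. Windows placed 1000 bp to either side of the summits held a CDX2 word in 9.98% to 11.8% of cases.

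**Figure D2:**
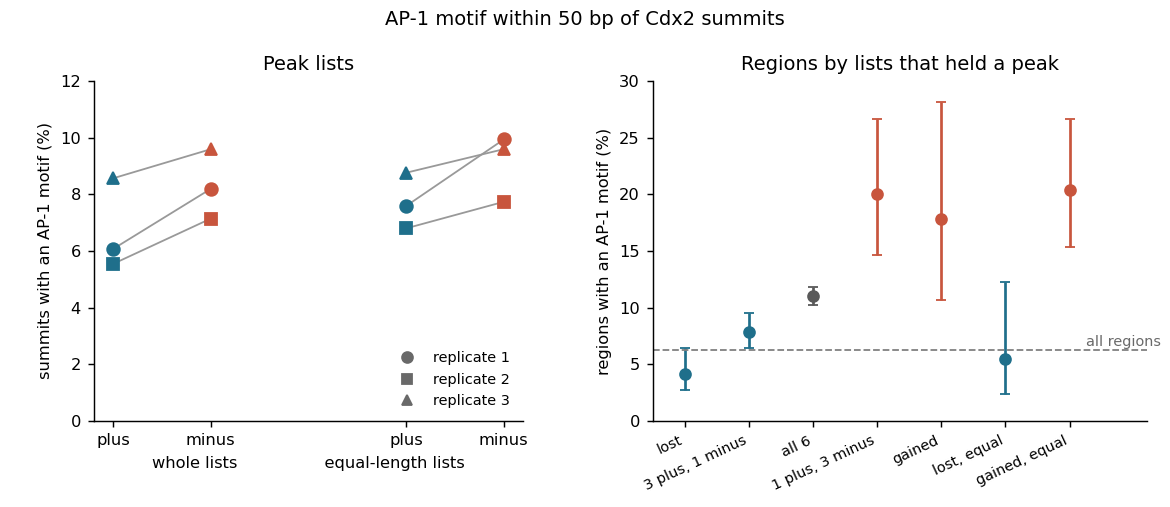
Share of summits with the AP-1 word within 50 bp (y axis, percent), by list with lines joining the 2 media of a replicate, and by class of region with Wilson 95% intervals and a dashed line at the share of all regions (6.22%). Each WENR-minus list lies above its WENR-plus partner, and gained regions lie above lost regions in whole lists (17.8% and 4.18%) and at equal length (20.4% and 5.49%).

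The 6001 shared regions were compared by rank, the percentile from 0 to 100 of a region's fold among the shared regions of its own list, which does not depend on the length of the list. With limma, a linear model with a moderated variance, and the replicate number as a block, 0 of 6001 regions (0%) had an adjusted p under 0.05, and the lowest adjusted p was 0.286. At an unadjusted p under 0.05, 431 regions (7.18%) ranked higher and 398 (6.63%) lower in WENR-minus. When the log2 fold was fitted in place of the rank, limma called 5 regions higher and 2 lower, with a lowest adjusted p of 0.0224. A rank difference moved together between pairs only in part, with correlations of 0.234 to 0.260 over regions, and 18.4% of regions ranked higher and 19.2% lower in all 3 pairs.

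Shared regions with an AP-1 word ranked higher in WENR-minus than in WENR-plus in each pair. Their median rank difference was 4.41, 4.50 and 4.90 points in replicates 1 to 3, over 659 regions. The 5342 shared regions without the word had medians of −0.33, −0.70 and −0.50 points. At an unadjusted p under 0.05, 81 regions with the word (12.3%) ranked higher and 31 (4.70%) lower, beside 7.18% and 6.63% of all shared regions. The difference was seen at promoters, where 126 regions with the word had medians of 3.99, 5.39 and 4.34 points, and away from them, where 533 regions had 4.50, 4.48 and 4.90. It was seen in regions with a CDX2 word (3.71, 4.48 and 4.31 points, 415 regions) and in regions without (5.24, 4.61 and 5.11 points, 244 regions). On the percentile within the whole list, the AP-1 medians were 1.81, −7.83 and 0.49 points, against −0.08, −9.81 and −1.92 for regions without the word, so that in replicate 2, whose lists differed most in length, both medians were negative.

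Regions with a GATA word (630) had smaller median rank differences of 1.83, 1.03 and 0.72 points, with 69 (11.0%) higher and 33 (5.24%) lower at an unadjusted p under 0.05. Without replicate 3, the median difference of GATA regions was −0.07 and 0.34 points in the other pairs. Regions with the TCF/LEF word ATCAAAG, the sequence read by the Wnt effector complex, had medians of 0.44, −0.21 and −1.04 points (194 regions). Regions with the HNF4 word CAAAGTCCA had 3.60, 4.17 and −1.65 points (54 regions). Only the AP-1 and GATA sets had positive medians in all 3 pairs among these motifs and the CDX2 set, whose medians were −0.21, −0.47 and −0.48 points over 4107 regions.

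**Figure D3:**
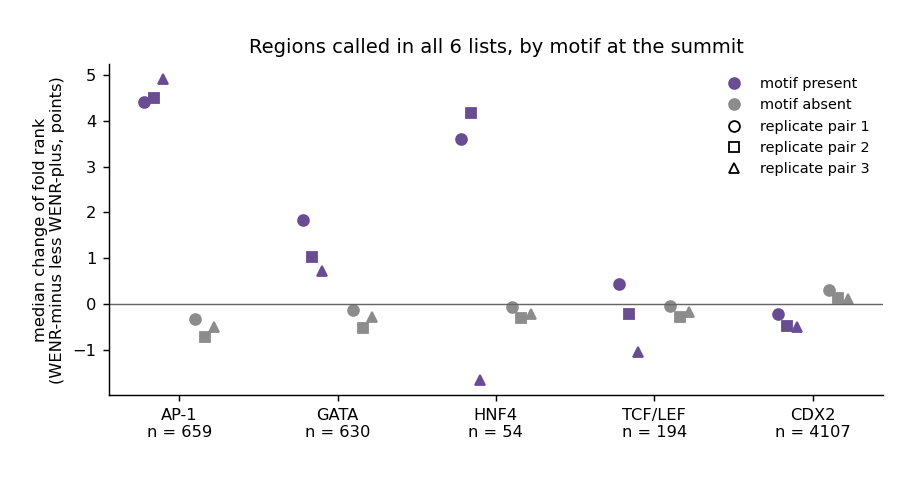
Median difference in fold rank, WENR-minus less WENR-plus (y axis, rank points), of shared regions with and without the AP-1, GATA, HNF4, TCF/LEF and CDX2 words, with a point for each of the 3 replicate pairs. Regions with the AP-1 word lie between 4.41 and 4.90 points, and those without it between −0.70 and −0.33.

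In distal colon organoids kept in the same media, the AP-1 difference depended on the measure. Of the shared regions, which were defined by the proximal lists, 2076 also had a peak in all 6 distal lists. Their distal folds were ranked among these 2076. The 222 of them with the AP-1 word had median distal rank differences of −0.67, −4.36 and 2.57 points. AP-1 words were found at 7.50%, 8.63% and 9.90% of distal WENR-plus and at 6.84%, 9.53% and 11.2% of distal WENR-minus summits. At equal length the distal shares were 7.76%, 10.1% and 9.90% in WENR-plus and 8.57%, 10.2% and 11.8% in WENR-minus lists, higher in 3 of 3 pairs as in the proximal lists. The difference in the AP-1 change between proximal and distal lists was 1.07 percentage points, with p = 0.2 by an exact permutation test, and 0.446 points at equal length with p = 0.5, so a difference between the colon sites was not shown.

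Rank differences of 1 direction clustered at Car1, which encodes carbonic anhydrase 1, an abundant enzyme of colonocytes. Car1 (ENSMUSG00000027556.15) lies on the reverse strand of chromosome 3, at 14766216 to 14808368. It was the nearest protein-coding gene to 8 regions, of which 6 were shared. At chr3:14778222-14779257, 0.088 kb upstream of a start site of a Car1 transcript, the ranks were 29.7, 15.9 and 20.5 in WENR-plus and 65.8, 55.7 and 68.0 in WENR-minus. The groups did not overlap, and the difference was 41.2 ± 5.43 rank points (SE, adjusted p = 0.286 with limma).

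Further along the gene, the region at chr3:14796218-14797279 had ranks of 18.4, 32.9 and 20.5 in WENR-plus and of 59.9, 44.4 and 79.3 in WENR-minus. At chr3:14804287-14805349, the ranks were 34.0, 48.7 and 39.8 in WENR-plus and 63.8, 73.2 and 77.6 in WENR-minus. In both regions every WENR-minus library ranked above every WENR-plus library. At chr3:14801710-14802513 the ranks were 32.0, 58.6 and 67.9 against 79.8, 78.0 and 84.7, also without overlap. At the promoter itself, chr3:14806598-14807766, they were 62.8, 36.3 and 54.2 against 82.7, 50.1 and 83.3, with overlap between media but higher values in each pair. The remaining region, chr3:14779871-14780956, was already among the strongest in WENR-plus, with ranks of 96.7, 89.0 and 93.1 against 96.0, 94.4 and 95.6.

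In all, 5 of the 6 shared Car1 regions ranked higher in WENR-minus at an unadjusted p under 0.05, beside 7.18% of all shared regions, and none passed adjustment. That number was 2, 3 and 2 when replicate 1, 2 or 3 was left out, and the fitted difference of all 6 regions stayed positive. Among 61 genes nearest to at least 5 shared regions, only Car1, Pde4d and Lmo7 had 3 or more such regions in the same direction, with 5 of 6 higher, 3 of 11 higher and 3 of 6 lower. Of the 6 shared Car1 regions, 3 also had a peak in all 6 distal lists, and each of these ranked higher in WENR-minus in 3 of 3 distal pairs. At the Car1 promoter the distal ranks were 5.11, 3.68 and 38.9 in WENR-plus and 57.8, 52.2 and 49.6 in WENR-minus, without overlap.

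Car2 encodes another carbonic anhydrase and lies next to Car1 and Car3, on the forward strand. The shared region nearest to Car2, at chr3:14957204-14957959 and 71.3 kb downstream of its start, went the other way. Its ranks were 85.4, 66.4 and 88.7 in WENR-plus and 10.7, 5.89 and 40.2 in WENR-minus, without overlap. The difference was −61.2 ± 7.31 rank points (SE, adjusted p = 0.286 with limma), and on the log2 fold scale −1.19 with an adjusted p of 0.0401. A pair of lost regions, chr3:14932773-14933219 and chr3:14948945-14949164, also had Car2 as their nearest protein-coding gene. Their percentiles within the whole list were 45.7, 57.5 and 23.7 for the first and 81.6, 37.4 and 33.7 for the second in the WENR-plus lists. At equal length a region at chr3:14979304-14979689 was gained, with percentiles of 34.8, 33.6 and 48.1 in WENR-minus lists. It was not gained in whole lists, where 2 of 3 WENR-plus lists also had a peak there. The folds in those 2 lists were 6.02 and 6.27, against 6.45, 6.01 and 5.92 in the WENR-minus lists.

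**Figure D4:**
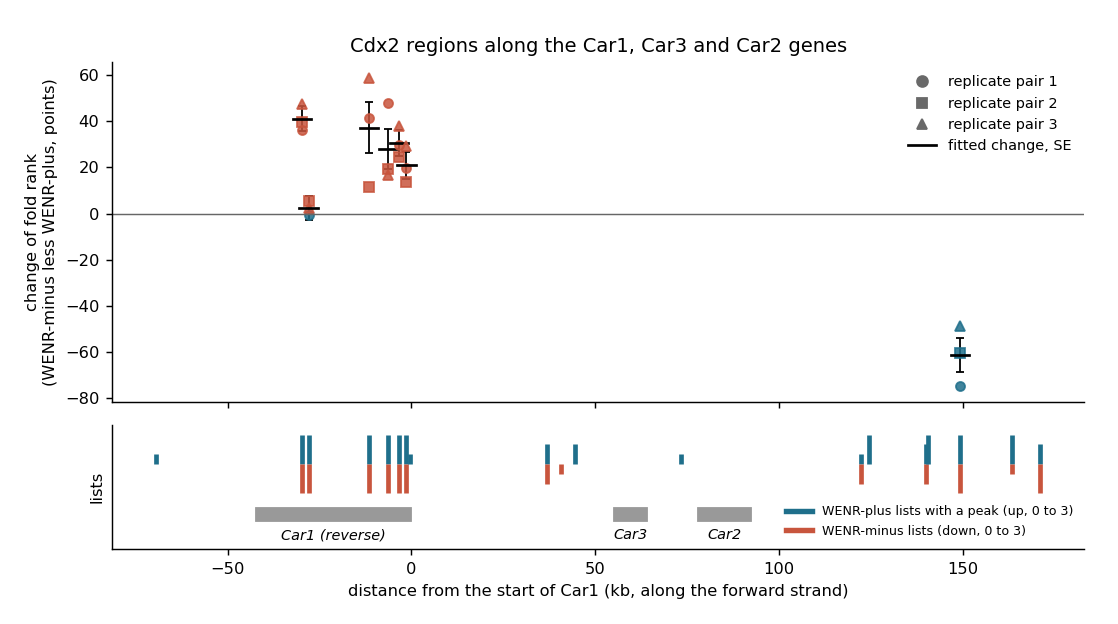
Shared regions of the Car1, Car3 and Car2 locus by distance from the Car1 start site (x axis, kb), with the difference in fold rank in each replicate pair and the fitted difference ± SE (top), and the number of lists with a peak by medium above the gene positions (bottom). The fitted differences of the 6 Car1 regions lie above 0, with 5 past an unadjusted p of 0.05, and the fitted difference of the Car2 region lies at −61.2 points.

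Among the other shared regions, the 5 with the lowest p in each direction were chosen for description, and all had an adjusted p of 0.286 in the limma rank fit. Because the choice used these same ranks, the separation of the media in the chosen regions adds no support. The lowest p belonged to a region at the promoter of Soat1, which encodes an enzyme that esterifies cholesterol. At chr1:156474418-156474968, its ranks were 2.61, 11.0 and 20.5 in WENR-plus and 61.8, 65.7 and 77.6 in WENR-minus, a difference of 57.0 ± 4.95 points. Its window, printed above, holds 2 AP-1 words and a GATA word. In an intron of Gabbr2, a subunit of the GABA-B receptor, the region at chr4:46960763-46961629 ranked at 13.8, 6.61 and 28.4 in WENR-plus and at 90.2, 65.7 and 96.6 in WENR-minus. This region had the lowest adjusted p on the log2 fold scale, with a difference of 1.54 (adjusted p = 0.0224, limma). In both regions every WENR-minus library lay above every WENR-plus library. The other regions of this direction, near Rundc3b, Gm9972 and Ttl, the last of which encodes tubulin tyrosine ligase, had differences of 54.1 to 65.2 points.

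In the other direction, the region at chrX:10877576-10878478, 161 kb from Mid1ip1, a regulator of fatty acid synthesis, ranked at 86.2, 87.9 and 91.0 in WENR-plus and at 5.30, 32.0 and 33.4 in WENR-minus. The rank difference was −64.8 ± 7.57 points, and the log2 fold difference was −1.38 (adjusted p = 0.0284, limma). In an intron of Chd7, a chromatin remodeller, ranks were 62.8, 69.9 and 81.6 in WENR-plus and 7.66, 15.7 and 29.8 in WENR-minus. Neither region had overlap between the media. The regions near Gm10330, Gm28729 and Map4k5, a kinase of the JNK branch of MAP kinase signalling, had differences of −52.4, −42.6 and −41.6 points. The log2 fold fit also called regions near Rundc3b, Gm9972, Ranbp17 and 1700012B07Rik higher.

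**Figure D5:**
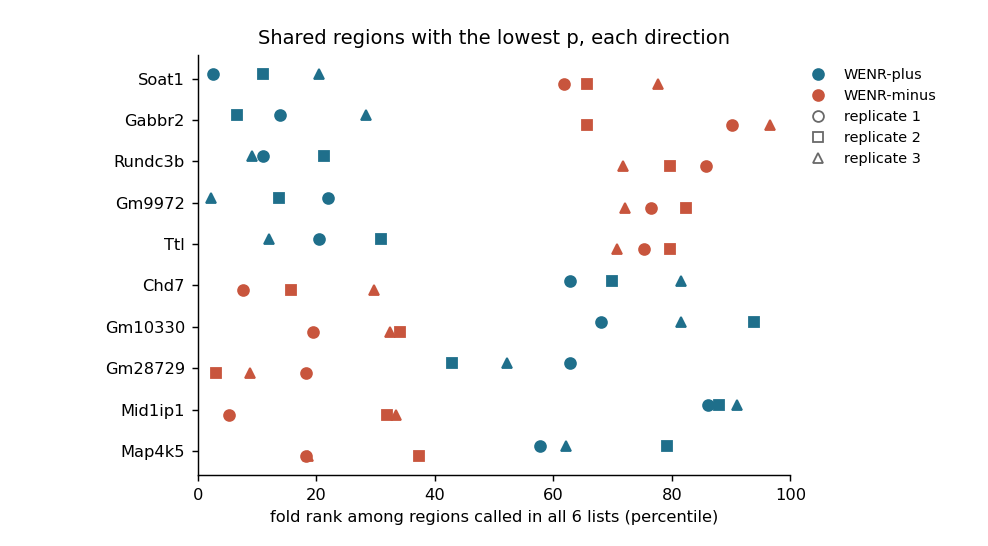
Fold rank among shared regions (x axis, percentile from 0 to 100) in the 3 WENR-plus and 3 WENR-minus libraries for the 10 shared regions with the lowest p, 5 in each direction, named by the nearest gene. In each region the WENR-plus and WENR-minus points do not overlap, but the regions were chosen by these same ranks, so this separation adds no support.

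The lost regions of highest fold lay near genes of varied function. Here the percentile is the place of the peak's fold among all peaks of its own list. The highest mean belonged to a region at chr4:95133704-95134288, in an intron and 81.8 kb upstream of Jun, which encodes an AP-1 subunit. Its percentiles were 83.4, 90.2 and 69.6 in the 3 WENR-plus lists, with folds of 7.92, 9.72 and 8.01, and no WENR-minus list had a peak there. The next were near Ttc7 (chr17:87352162-87352755, percentiles of 76.8, 86.0 and 74.0) and Aqp4, which encodes a water channel (86.3, 81.2 and 66.0). These 3 regions, and those near the zinc transporter gene Slc30a4 and the neuropeptide gene Npvf, were also lost at equal length. The other 5 of the 10 with the highest mean lay near Vps53, Ptprd, Msi2, Atp13a3 and Ets2, with means of 70.6 to 75.3. Of these, the Msi2 region was also lost at equal length. Msi2 encodes an RNA-binding protein of progenitor cells, and Ets2 is an ERK-responsive transcription factor. Ptprd, a receptor phosphatase gene in a large gene-poor interval, was nearest to 3 lost regions of its 107.

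The gained regions of highest fold also lay near genes of varied function, several of them over 100 kb away. Near Slc35a5, a nucleotide sugar transporter, the region at chr16:45126200-45126800 had percentiles of 93.7, 64.6 and 77.0 in the WENR-minus lists. In an intron near Coro1c, which encodes an actin-binding coronin, they were 86.2, 73.1 and 69.5 (chr5:113867099-113867472). At chr5:88851132-88852140, 35.2 kb upstream of the bicarbonate cotransporter gene Slc4a4, they were 80.5, 74.8 and 71.5. No WENR-plus list had a peak in any of these regions, and all 10 gained regions of highest mean percentile still had a peak in 3 of 3 WENR-minus lists at equal length. The remaining 7 lay near Zfp41, Rnf32, Edn1, Tigd2, Pcsk5, Gnai1 and Fggy, with means of 65.7 to 72.5. Edn1 encodes the peptide endothelin-1 and Pcsk5 a proprotein convertase. Slc4a4, Tigd2 and Dsc3 were each nearest to 2 gained regions, of 17, 13 and 77 regions, beside 0.127% of all regions. The 2 assigned to Dsc3 lay 478 and 541 kb from its start. At equal length Klf6, which encodes a zinc finger transcription factor, was nearest to 4 gained regions of its 46, beside 0.829% of all regions. These 4 lay 56.1 to 322 kb from its start, and none of the 4 windows held an AP-1 word.

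In whole lists, lost and gained regions resembled each other in position. A summit within 3 kb of a start site was found in 21.5% of lost, 21.9% of gained and 20.3% of shared regions, against 16.3% of all regions. The median distance to a protein-coding start was 28.4 kb for lost, 29.5 kb for gained and 26.2 kb for shared regions. At equal length they differed more, with 22.0% of lost and 16.2% of gained summits within 3 kb and medians of 25.9 and 34.4 kb. In whole lists, lost and gained regions were narrower than shared regions, with median widths of 370, 419 and 755 bp. Their GC content differed, with medians of 41.6% in lost, 36.6% in gained and 38.6% in shared windows, and its part in the motif shares was not tested. No peak in any of the 6 distal lists overlapped 57.1% of lost and 67.1% of gained regions, against 10.7% of shared and 60.4% of all regions. At equal length these shares were 22.0% of lost, 37.2% of gained and 30.4% of all regions.

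Genes of the withdrawn signals were examined by the regions nearest to them, within 100 kb. Of 30 Wnt pathway and stem cell genes, 22 had 108 regions, of which 25 were shared, 5 lost (4.63%) and 0 gained. Over all genes, 4769 of 35057 regions were shared (13.6%), 357 were lost (1.02%) and 51 were gained (0.145%). The 0 gained regions of this and the following lists are near that last share. The lost regions lay near Tnfrsf19, Myc, Tcf7l2, Ephb2 and Lrig1, which encode a receptor of stem cells, a proliferation factor, a Wnt effector, a receptor of crypt base cells and an inhibitor of ERBB receptors. The highest mean percentile was that of Tnfrsf19 at chr14:60985013-60985511, with percentiles of 60.4, 65.9 and 48.7 in the WENR-plus lists. At equal length 0 of the 64 regions of this list were lost, so the lost calls of this list were not kept there. Lgr5, the stem cell marker, had no region, and the shared region of Axin2, a Wnt target, ranked at 12.5, 29.6 and 16.1 in WENR-plus and 39.1, 32.0 and 13.6 in WENR-minus.

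At shared regions the Wnt list was divided. Of all 4769 shared regions within 100 kb of a gene, 315 ranked higher and 317 lower at an unadjusted p under 0.05. By that measure 3 of the 25 regions of the Wnt list, near Tcf7l2, Cdca7 and Myc, ranked higher, and 3, near Rnf43, a ligase that removes Wnt receptors, and Lrig1, with 2 regions, ranked lower. Near Cdca7 the ranks were 37.6, 9.62 and 2.91 in WENR-plus and 72.7, 35.0 and 52.4 in WENR-minus, with a slight overlap of the media. In Rnf43 they were 25.8, 47.4 and 67.9 against 8.40, 21.3 and 6.59, without overlap. No region of any list had an adjusted p under 0.05 in the rank fit.

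Of 26 genes of EGF receptor and ERK signalling, 22 had 132 regions, with 25 shared, 1 lost (0.758%) and 0 gained. At an unadjusted p under 0.05, 4 of the 25 shared regions ranked lower, near Dusp6, Etv5, Spred2 and Areg, and 1 ranked higher, near Ereg, beside 317 lower and 315 higher of 4769 for all genes. Dusp6 encodes an ERK phosphatase, Etv5 an ERK-induced transcription factor, Spred2 an inhibitor of the cascade, and Areg and Ereg ligands of the EGF receptor. The Dusp6 region at chr10:99347607-99348204 ranked at 25.8, 51.5 and 39.8 in WENR-plus and at 5.86, 5.89 and 8.91 in WENR-minus. The Etv5 region at chr16:22390214-22390954 ranked at 70.9, 77.1 and 76.3 against 52.4, 47.6 and 40.2. The media did not overlap at either region, with differences of −32.2 ± 7.23 and −28.1 ± 6.11 points (SE). In all 3 pairs, 8 of the 25 regions (32%) ranked lower and 2 (8%) higher, against 908 and 842 of the 4769 shared regions of all genes. The lost region was at the promoter of Dusp4, another ERK phosphatase, 0.657 kb from its start, and was not lost at equal length, with percentiles of 45.7, 70.3 and 51.2 in the WENR-plus lists. Egfr had 11 regions with 1 shared, which ranked at 37.6, 62.7 and 79.1 against 77.7, 37.3 and 54.2.

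BMP and TGF-beta genes, the pathway held back by Noggin, had 67 regions at 18 of 24 genes, with 12 shared, 0 lost and 0 gained, and no shared region at an unadjusted p under 0.05. Id1, a BMP target, had 1 region, called in 2 lists of each medium. Of 34 colonocyte genes, 31 had 126 regions, with 35 shared, 3 lost (2.38%) and 0 gained. Besides the 5 Car1 regions, a region near Slc9a3, a sodium-proton exchanger of the brush border, ranked higher, at 12.5, 39.9 and 70.3 in WENR-plus and 58.6, 62.5 and 80.9 in WENR-minus. The shared regions that ranked lower were those of Car2, Cdh1 and Vil1. The promoter region of Vil1, which encodes the microvillus protein villin, ranked at 44.7, 64.6 and 52.2 in WENR-plus and at 9.15, 55.7 and 27.6 in WENR-minus, with overlap. The strongest region of Krt20, a keratin of differentiated colonocytes, ranked at 96.5, 91.5 and 92.6 against 97.2, 97.6 and 97.6. The third lost region of this list, besides the pair at Car2, lay upstream of the guanylate cyclase gene Gucy2c.

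Gut transcription factor genes had 186 regions at 26 of 28 genes, with 48 shared, 1 lost and 0 gained. The lost region lay near Nr5a2, a nuclear receptor of crypt cells, and 2 of its shared regions and 1 near Klf4, a factor of differentiating cells, ranked lower at an unadjusted p under 0.05. These counts, 3 of 48 shared regions lower and 1 of 186 lost (0.538%), were near those of all genes, at 317 of 4769 and 1.02%. At the Nr5a2 promoter the ranks were 37.6, 32.9 and 70.3 in WENR-plus and 11.1, 15.7 and 49.7 in WENR-minus, lower in each pair. The region near the Klf4 gene ranked at 47.7, 54.0 and 48.3 against 30.8, 10.1 and 8.91, without overlap. Cdx2 itself had 1 region, 2.08 kb upstream of its start, called in 3 WENR-plus and 1 WENR-minus lists. All 4 shared regions of Hnf4a, a partner factor in the epithelium, had an unadjusted p above 0.05, with ranks at the promoter of 34.0, 26.3 and 12.0 against 5.86, 10.1 and 13.6.

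Cell cycle genes had 33 regions at 12 of 27 genes, with 6 shared, 1 lost (Cdk6, 3.03%) and 0 gained. The region in an intron near Plk1, a mitotic kinase, ranked at 81.6, 82.8 and 76.9 in WENR-plus and at 33.8, 47.6 and 29.8 in WENR-minus, without overlap, a difference of −43.4 ± 5.68 points (SE). Secretory lineage genes had 52 regions at 16 of 23 genes, with 9 shared, 1 lost (Cck, 1.92%) and 0 gained. The promoter region of the goblet cell gene Agr2 ranked lower, at 25.8, 45.8 and 53.9 against 16.6, 2.07 and 3.88. None of the lost regions named for these gene lists was lost at equal length, where instead regions near Hes1 and Ccnd2 were lost and regions near Nr1h4 and Car2 gained. Markers of fibroblasts, immune and endothelial cells had 23 regions at 8 of 12 genes and 1 shared region, near Pecam1, an endothelial adhesion gene, with ranks of 41.3, 23.1 and 44.3 in WENR-plus and 79.8, 62.5 and 70.8 in WENR-minus. Among markers used to check the label of colon epithelium, Car1, Krt20, Vil1, Cdh17 and Muc13 had shared regions, while Cdx1 and Gpa33 had regions of which none was shared.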

How the data were processed

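The deposited narrowPeak lists of 6 proximal Cdx2 libraries (3 per medium) were analysed, with the 6 distal lists as a reference. The submitters' processing notes name Trimmomatic 0.39, Bowtie2 2.4.5, SAMtools 1.13, MACS2 2.2.7.1 and deepTools 3.5.1, which by the methods of the study served for trimming, alignment to mm10, duplicate removal and peak calling. The authors called peaks in each library against its own input at a q-value limit, without pooling. In the deposited lists, fold is the ratio of summit pileup to local background. Each deposited line also gives −log10 values of the p and of the q-value, a score made from the latter, and the summit offset. The lists hold no counts and no depth, and read totals in the supplement were not used here, so the read-count comparison of the study was not used here, and 75 to 118 peaks per list on other chromosomes were left out.

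Positions were annotated with GENCODE vM21 on GRCm38, with promoters within 3 kb of any start site, and genes were named by the nearest protein-coding start. Rank differences were fitted with limma 3.58.1 in R 4.3.3 (lmFit and eBayes, replicate number as a block) with Benjamini-Hochberg adjustment over all 6001 shared regions, and list measures were compared with two-sided exact permutation tests in Python 3.11.15. The scripts were tested on simulated data. Alternatives were lists of equal length, a −log10 q of at least 5, summit windows, other rank scales, no block, and each replicate left out. The shares of 8 motifs in the lists were planned, and AP-1 and GATA were singled out after seeing their values. Their rank differences, shares by class and alternatives, the Car1 counts and the difference of lost and gained counts were added after seeing the data.

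Named genes were those nearest to the 10 lost and 10 gained regions of highest mean fold percentile, to the 5 of highest mean also lost or gained at equal length, to 3 or more lost or 2 or more gained regions, and to the 5 shared regions with the lowest p and a common direction in each direction. Genes of 8 lists with a lost or gained region were also named, and 8 genes always (Cdx2, Hnf4a, Car1, Krt20, Lgr5, Axin2, Egfr and Id1). Ptpn12, Erlin1, Pde4d, Lmo7, Klf6 and the listed genes at an unadjusted p under 0.05 were chosen after their values were seen. The members and lists were chosen with earlier results of these data known. A marker of colon epithelium among those checked is not reported here.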

Additional observations from a re-analysis of the deposited data

Results flagged for a closer look

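In whole lists, the change in the share of summits with a GATA word from WENR-plus to WENR-minus medium had opposite signs at the colon sites. It was higher by 0.607 percentage points in proximal lists, in 3 of 3 pairs, and lower by a mean of 0.394 points in distal lists, in 3 of 3 pairs, so that the difference between the sites was 1.00 percentage points. An exact permutation test of that difference gave p = 0.1, the smallest that 3 pairs against 3 allow. The result was flagged because the signs were opposite in all pairs of the colon sites. That rule fixes this p in advance, so the test adds no support. In lists of equal length the difference was 0.300 points (exact permutation p = 0.2), and the distal share was then higher in 2 of 3 pairs. The GATA word was singled out after its values were seen.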

How the results depend on the processing

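List length and single pairs moved the region counts most. At equal length, 91 regions were lost and 191 gained, and lost less gained regions turned to −100. Leaving out 1 replicate number gave 743 to 4969 lost regions, 155 to 651 gained regions and 92 to 4659 for their difference. The promoter share of the lists, higher by 0.304 percentage points in WENR-minus, turned to −0.0146 at equal length and to −0.0774 with promoters of 1 kb. The CDX2 share, higher by 0.741 points, turned to −2.56 at equal length and to −0.493 with 100 bp to each side, and ran from −3.76 to 3.31 without 1 replicate. AP-1 regions exceeded the rest by 5.11 rank points, and by 3.73 at equal length, 2.10 on the percentile within the whole list and 4.00 to 4.89 without 1 replicate. GATA regions exceeded the rest by 0.276 to 1.44 points without 1 replicate, and the AP-1 share of lost regions ran from 4.19% to 6.62%. The causes of these moves were not tested, apart from list length, which equal lists fix by construction.

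In the limma fit, 0 regions passed adjustment on any rank scale, and 5 higher and 2 lower regions did on the log2 fold scale. Samples with the same replicate number did not all deviate together (correlations of 0.0977, 0.298 and 0.444), and WENR-plus 1 correlated best with WENR-minus 2 (0.155). Across media, however, each list shared most regions at equal length with the list of its own number (Jaccard indices of 0.526 to 0.531), and its ranks correlated best with that list (0.657 to 0.704), a hint from the data of pairing that the labels do not state. With no replicate block, 0 regions passed adjustment, with 358 higher and 294 lower at an unadjusted p under 0.05. Of the alternative values of the main comparisons, 71 were labelled as unchanged, 18 as moved and 6 as reversed. For region counts, unchanged meant a similar size, and for AP-1 shares of lost or gained regions a value inside the Wilson interval. For rank differences it meant a shift below the SD over pairs, and for list tests the same direction and the same side of 0.05. No exact test of the lists could reach 0.05, so their alternatives could only be unchanged or reversed. Some of the 71 still changed in size, such as the log2 difference in peak number, −0.62, which was −0.23 without replicate 2. The lists give no depth, and its part in the counts of lost and gained regions was not tested.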
